A study of Sus scrofa with 12 samples.

Results

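The ligand GDNF (glial cell line-derived neurotrophic factor), its co-receptor and its signalling receptors were followed in porcine oocytes through the 4 features of the array whose platform gene symbol is GDNF, GFRA1, RET or NCAM1. The rule took 1 feature for each gene, 4 of 45220 features in all, and used no measured value. Oocytes came from crossbred prepubertal gilts and belonged to a class called SM or a class called LG, names that the labels do not spell out. Both classes were matured in vitro for 44 h, either with GDNF added or without it. The medium, TCM199, held EGF, FSH, LH and follicular fluid of pigs at 10%. Surrounding cells were then removed with hyaluronidase and a pipette. The 4 groups were therefore SM control, SM GDNF, LG control and LG GDNF, all exposed to the same gonadotropins, EGF and follicular fluid. Each group had 3 pools of oocytes, and each pool was hybridised on its own array together with reference RNA, which came from a mixture of oocytes of the 4 groups. The labels do not say whether the pools came from separate animals or days, so the spread between them may be partly technical.

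GDNF is a secreted ligand of the TGF-beta superfamily. It binds GFRA1, a co-receptor held in the membrane by a lipid anchor and without a kinase of its own, and the complex brings together molecules of RET, a receptor tyrosine kinase that signals through RAS-MAPK and PI3K. NCAM1, a cell adhesion molecule of the immunoglobulin superfamily, binds GDNF together with GFRA1 and signals through the kinases FYN and FAK without RET. In the testis of rodents GDNF from Sertoli cells maintains the stem cells of the germ line, and in the ovary the ligand and its receptors are known from follicle cells and oocytes.

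The values are deposited log ratios of 2 channels, treated as log2. Every array had the same median absolute ratio, 0.267, so the ratios had been scaled and 1 unit need not be a doubling. A ratio compares a pool with the reference for the same feature and says nothing about how abundant a transcript is or how it ranks against another. Every slide, 3 in all, held 1 pool of each group. Pools were labelled with Cy5 on slide 1 and with Cy3 on slides 2 and 3, and it is not known here whether the deposited ratios were turned to sample over reference. The means of the 4 arrays of a slide correlated across features at 0.641 between slides 1 and 2, 0.606 between slides 1 and 3 and 0.634 between slides 2 and 3, so that the part of the ratios shared by a slide's arrays had the same sign on all slides. A constant difference between sample and reference and a dye effect cannot be told apart in this. Tests were therefore run on slides 2 and 3 alone, 8 arrays with the same dye orientation, and sizes are given without a direction of expression. Beside them stand the fits on all 12 arrays with slide 1 as deposited and with the sign of slide 1 turned. Array medians ranged from -0.0106 to 0.0215. The ratios of the LG control pool of slide 3 had an SD of 0.871 over all features, against 0.454 to 0.547 on the other 11 arrays. The array titles of the LG GDNF pools of slides 1 and 2 end in the word Clean, and no other title does. What the word stands for is not known here, and its part in the values was not tested.

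The features of the ligand and of RET and its co-receptor differed from that of NCAM1 in a property that does not depend on the groups. Within an array many features carry exactly the same ratio to the last deposited digit. Between 53.4% and 68.3% of the 45220 features of an array did so. GDNF, GFRA1 and RET each shared their ratio with at least 1 other feature on 12 of 12 arrays, and with up to 11 others. On the SM control pool of slide 2 GDNF and GFRA1 also had the same ratio as each other, -0.34. Of all features 18.8% shared their value on all 12 arrays. NCAM1 shared its ratio on 2 of 12 arrays, with at most 2 others.

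The marker genes of cell types divided in the same property, which was looked at after the data had been seen. The 17 features of oocyte markers, such as the zona pellucida genes and GDF9, shared their value on a median of 0 arrays, and the 83 features of cytosolic ribosomal proteins also had a median of 0. The 13 features of theca, stroma and blood markers had a median of 11 arrays and 6 of them shared it on all 12, while the 20 features of cumulus and granulosa markers had a median of 7. GDNF, GFRA1 and RET thus stood with the features that repeat on every array, and NCAM1 stood nearer to the oocyte and ribosomal genes. Spot intensities were not used here, and whether repeated ratios go with dim spots was not tested.

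**Figure D1:**
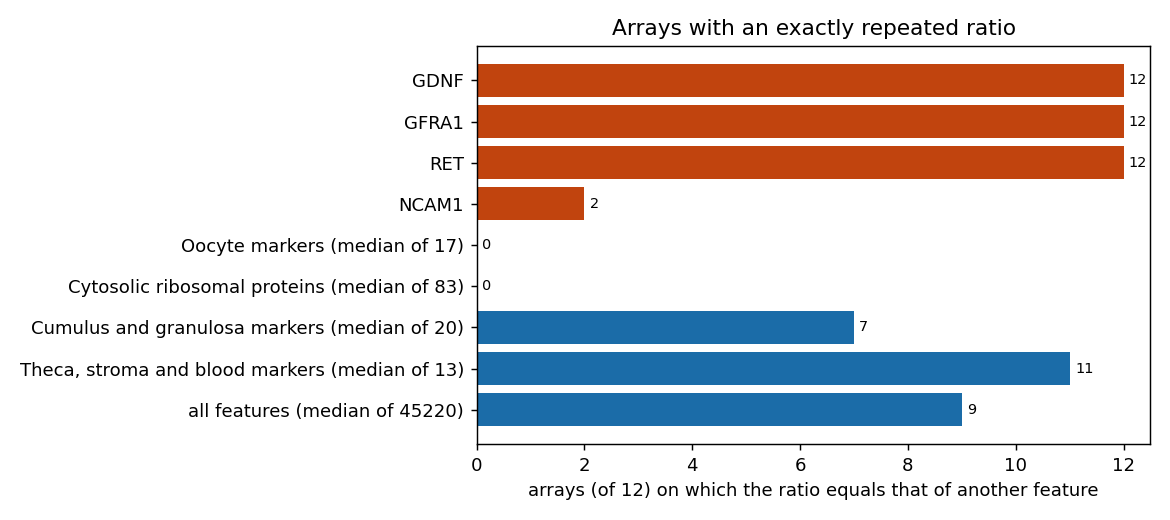
Number of arrays, out of 12, on which a feature's deposited ratio exactly equals that of another feature of the same array (horizontal axis), for the 4 receptor and ligand features (orange) and as the median over the features of marker lists and of all 45220 features (blue). GDNF, GFRA1 and RET stand at 12 and NCAM1 at 2, while oocyte markers and ribosomal proteins have medians of 0.

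GDNF was added to the medium of the treated groups as a ligand, whereas the array measured the transcript of the cells' own GDNF gene. Its ratio lay below 0 on 11 of 12 arrays, and the means of slides 1, 2 and 3 were -0.28, -0.48 and -0.62. SM control pools had ratios of 0.047 on slide 1, -0.34 on slide 2 and -0.98 on slide 3. SM GDNF pools had -0.58, -0.61 and -0.65 on the same slides. These treated pools lay close together, inside the range of the SM control pools. LG control pools had -0.18, -0.45 and -0.21 on slides 1, 2 and 3, and LG GDNF pools had -0.39, -0.52 and -0.65. The LG groups did not overlap on slides 2 and 3, as was the case for 33.3% of all genes. The ratios of LG control and LG GDNF on slide 2 differed by only 0.070.

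The order of the GDNF means on slides 2 and 3 was, as deposited, LG control at -0.33 ± 0.174, LG GDNF at -0.59 ± 0.0936, SM GDNF at -0.63 ± 0.0261 and SM control at -0.66 ± 0.458 (SD, n = 2 each). LG GDNF overlapped with SM GDNF and SM GDNF with SM control, so that these 3 neighbours did not differ beyond their spread. The spread of GDNF within slides was ordinary: its within-slide SD over 12 arrays was 0.250, larger than that of 51.5% of the 11913 genes with a symbol.

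**Figure D2:**
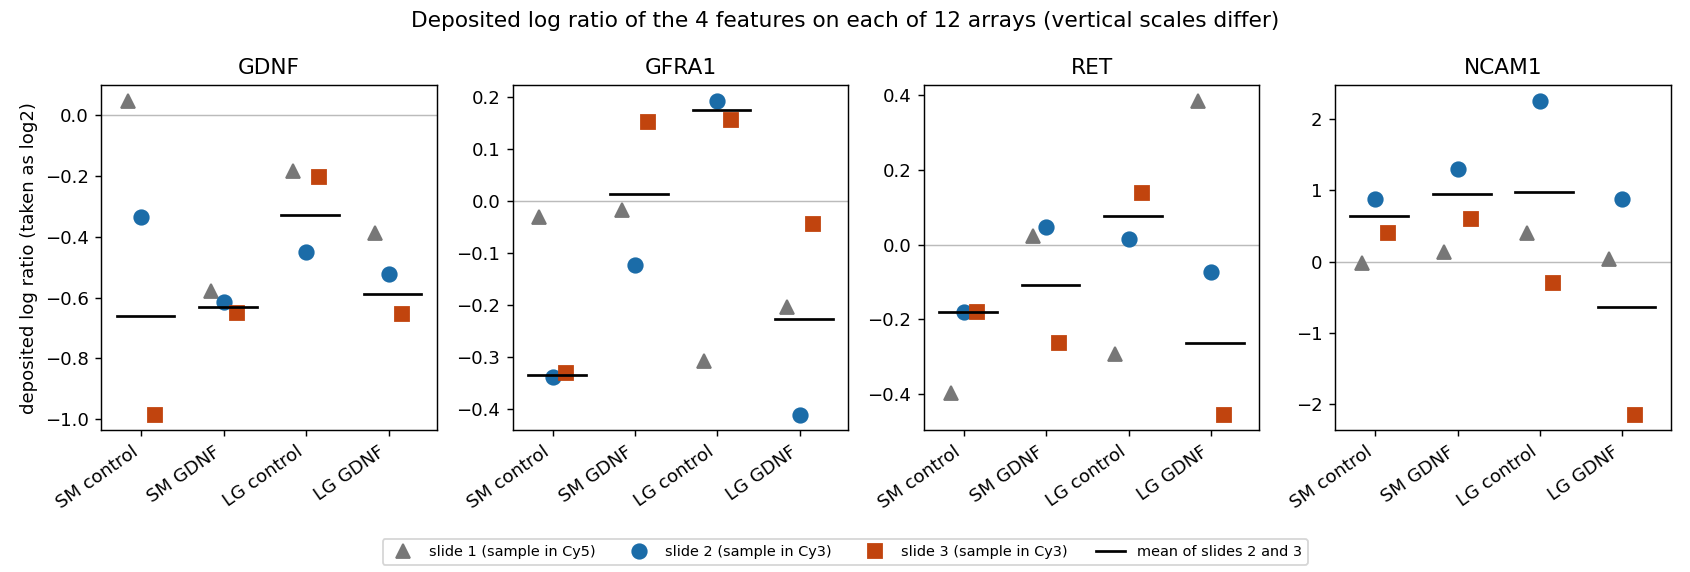
Deposited log ratio (vertical axis, taken as log2) of GDNF, GFRA1, RET and NCAM1 on each of the 12 arrays, by group. Triangles, circles and squares are slides 1, 2 and 3, horizontal lines are the means of slides 2 and 3 (n = 2), and the NCAM1 pool of LG GDNF on slide 3 at -2.15 is the lowest ratio shown. Vertical scales differ between genes.

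GFRA1, the co-receptor that holds GDNF at the cell surface, had control pools of SM and LG that did not overlap on slides 2 and 3, as was the case for 30.0% of all genes. SM control pools had ratios of -0.34 on slide 2 and -0.33 on slide 3. LG control pools had 0.19 and 0.16 on these slides. The control pools of a class lay closer to each other than to those of the other class. On slide 1, whose dyes run the other way, the ratio was -0.031 in SM control and -0.31 in LG control, a difference of 0.28 on the opposite side as deposited and on the same side with slide 1 turned.

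Pools matured with GDNF lay between or beside these controls. SM GDNF pools had GFRA1 ratios of -0.017 on slide 1, -0.12 on slide 2 and 0.15 on slide 3. LG GDNF pools had -0.20, -0.41 and -0.044. On slides 2 and 3 the SM GDNF pools lay above both SM control pools as deposited, and the LG GDNF pools lay below both LG control pools. Of all genes 24.6% had no overlap between the SM groups and 33.3% none between the LG groups. The means were 0.17 ± 0.0259 in LG control, 0.014 ± 0.195 in SM GDNF, -0.23 ± 0.259 in LG GDNF and -0.33 ± 0.00492 in SM control (SD, n = 2 each). SM GDNF overlapped with LG GDNF and LG GDNF with SM control. LG control and SM GDNF did not overlap, as was the case for 32.3% of all genes. Their nearest pools, both on slide 3, differed by only 0.0039. The within-slide SD of GFRA1 was 0.220 over 12 arrays, below the median of 0.246 over all genes.

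RET, the receptor kinase, varied without a separation by class in the treated oocytes. SM control pools had ratios of -0.40 on slide 1, -0.18 on slide 2 and -0.18 on slide 3, and SM GDNF pools had 0.022, 0.046 and -0.26. LG control pools had -0.29, 0.015 and 0.14. LG GDNF pools had 0.39, -0.074 and -0.46, the widest range of the 4 groups, from the highest to the lowest RET ratio of the series. The LG groups did not overlap on slides 2 and 3, as was the case for 33.3% of all genes. On slide 1 LG GDNF was above LG control by 0.68 as deposited, the side opposite to that of slides 2 and 3.

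The RET means on slides 2 and 3 were 0.077 ± 0.0879 in LG control, -0.11 ± 0.220 in SM GDNF, -0.18 ± 0.0015 in SM control and -0.26 ± 0.270 in LG GDNF (SD, n = 2 each). Every group overlapped with its neighbour in this order. The within-slide SD was 0.256, larger than that of 53.3% of genes.

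NCAM1, the receptor that can take GDNF without RET, was far more variable than the other members. Its within-slide SD of 0.821 was larger than that of 97.3% of genes. Spread also differed with the repeated ratios. Features that shared their value on all 12 arrays, as the other 3 members did, had a median within-slide SD of 0.224. Features that shared it on 3 or fewer arrays, as NCAM1 did, had 0.482. The part of this property in the rank of NCAM1 was not tested. SM control pools had ratios of -0.025 on slide 1, 0.88 on slide 2 and 0.40 on slide 3, and SM GDNF pools had 0.14, 1.29 and 0.60. LG control pools had 0.40, 2.26 and -0.30, and LG GDNF pools had 0.039, 0.87 and -2.15. The 4 pools of slide 2 were all at 0.87 or above, those of slide 1 lay within 0.43 of each other, and those of slide 3 ranged over 2.74.

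Pools at both ends stood out within their arrays. On the LG GDNF pool of slide 3, 0.252% of genes had a lower ratio than NCAM1, and on the LG control pool of slide 2, 99.8% did. After the slide means were taken off, the LG GDNF pool of slide 3 lay farthest from 0, at -1.78. The NCAM1 means on slides 2 and 3 were 0.98 ± 1.81 in LG control, 0.94 ± 0.492 in SM GDNF, 0.64 ± 0.337 in SM control and -0.64 ± 2.13 in LG GDNF (SD, n = 2 each). All neighbours in this order overlapped.

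The first comparison asked whether GDNF in the medium changed these transcripts in SM oocytes. No member passed limma's test, which called 0.0% of the 11913 genes at an adjusted p under 0.05. At an unadjusted p under 0.05 it had 140 genes (1.18%) on 8 arrays, and 2.34% and 2.1% of genes on 12 arrays with slide 1 as deposited and turned. GFRA1 had the largest size of the members, 0.35, with 0.196 as its standard error (limma, adjusted p = 1.00), and its groups did not overlap on slides 2 and 3. It was the only member of 4 without overlap, against 24.6% of all genes. The difference lay on the same side on slides 2 and 3, with 0.21 and 0.48, and was 0.014 on slide 1. NCAM1 had 0.30 (0.667), RET 0.072 (0.208) and the GDNF gene 0.029 (0.252), with standard errors in parentheses here and below.

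All 4 differences lay on the same side as deposited, with a median size of 0.19 against 0.14 over all genes. Of all genes 48.1% lay on that side. With all 12 arrays GFRA1 had 0.24 with slide 1 as deposited and 0.23 with it turned, and NCAM1 had 0.26 and 0.15. The GDNF gene and RET changed side between these readings. The 95% intervals of the 8 arrays reached sizes of 0.83 for GFRA1, 0.65 for the GDNF gene, 0.58 for RET and 1.93 for NCAM1, so changes up to these sizes were not excluded by these arrays.

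In LG oocytes the same comparison gave larger sizes, again with no call. Limma called 0.0% of the 11913 genes, and 611 (5.13%) had an unadjusted p under 0.05 on 8 arrays, against 7.57% and 4.79% in the readings of 12 arrays. The size of NCAM1 was 1.61 (0.667; limma, adjusted p = 0.884, unadjusted p = 0.0517), larger than that of 98.8% of genes. The difference lay on the same side on all 3 slides as deposited, with 0.36 on slide 1, 1.39 on slide 2 and 1.84 on slide 3. With all 12 arrays the size was 1.20 (0.510; limma, unadjusted p = 0.0426, adjusted p = 0.649) with slide 1 as deposited and 0.96 (0.549) with it turned. Without the LG GDNF pool of slide 3 these sizes were 0.53 and 0.24, and slides 2 and 3 alone gave 0.73. They gave 1.03 without the LG control pool of slide 2, which had the highest NCAM1 ratio.

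GFRA1 differed by 0.40 (0.196) between GDNF and control in LG, RET by 0.34 (0.208) and the GDNF gene by 0.26 (0.252), each with an adjusted p of at least 0.884 in limma. All 4 members lay on the same side, against 54.4% of all genes, and their median size was 0.37 against 0.18 over all genes. Single LG pools moved these values: without the LG control pool of slide 3 the GDNF gene had 0.00013 and RET 0.16, and without that of slide 2 both had 0.52. RET had 0.18 without the LG GDNF pool of slide 3, and GFRA1 0.26 without that of slide 2. GFRA1, RET and the GDNF gene, 3 of 4 members, had groups that did not overlap on slides 2 and 3, against 33.3% of all genes. With slide 1 turned RET had 0.45 (0.180; limma, unadjusted p = 0.0316, adjusted p = 0.979), and with slide 1 as deposited its size was 0.0019. GFRA1 had 0.30 and 0.23 in these readings, on the side of slides 2 and 3.

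Averaged over both classes the size was smaller than in LG for every member, and larger than in SM for NCAM1, RET and the GDNF gene. NCAM1 had a size of 0.66 (0.471), RET 0.14 (0.147), the GDNF gene 0.12 (0.178) and GFRA1 0.027 (0.139), and limma called 0.0% of genes. An unadjusted p under 0.05 was reached by 195 genes (1.64%) on 8 arrays and by 4.45% and 1.87% on 12. On the 8 arrays the differences of each class lay on opposite sides for all 4 members and so partly cancelled in the average. The share of all genes with opposite sides was not computed. In SM the sizes of NCAM1, RET and the GDNF gene were below their standard errors. RET and the GDNF gene changed side there in a reading of 12 arrays.

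**Figure D3:**
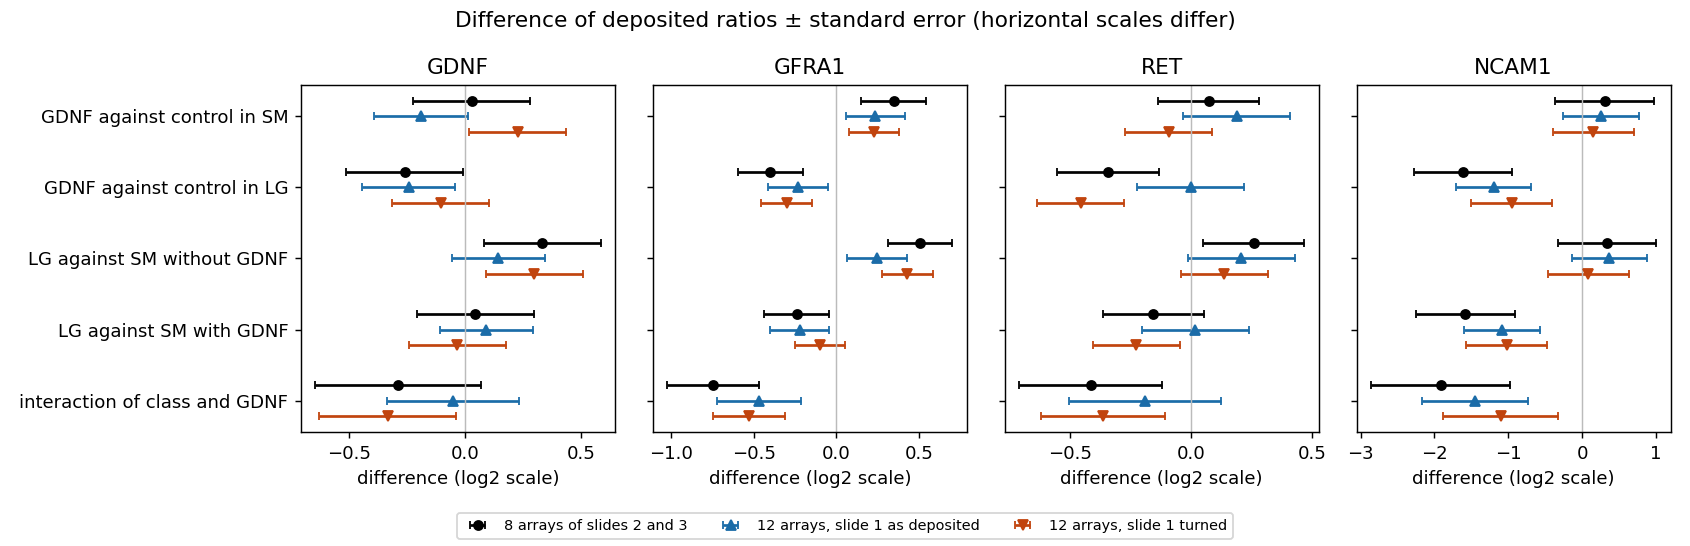
Differences of deposited ratios (horizontal axis, log2 scale) with standard errors for each member and comparison, from the 8 arrays of slides 2 and 3 (black) and from 12 arrays with slide 1 as deposited (blue) or turned (orange). On the 8 arrays the 4 members lie on one side of 0 for GDNF against control in SM and on the other side in LG. In SM the GDNF gene and RET change side in a reading of 12 arrays. NCAM1 in LG has a size of 1.61 on the 8 arrays.

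The next question was whether the classes differed in the response to GDNF, tested as an interaction. For GFRA1 the size was 0.75 (0.277; limma, unadjusted p = 0.0356, adjusted p = 0.994), and the difference of the responses was 0.82 on slide 2 and 0.68 on slide 3, on the same side, against 0.089 on slide 1. NCAM1 had 1.92 (0.943; adjusted p = 0.994), with 0.52, 1.80 and 2.04 on slides 1, 2 and 3, all on the same side as deposited. RET had 0.41 (0.295) and the GDNF gene 0.29 (0.356). Limma called 0.0% of genes, and 410 (3.44%) had an unadjusted p under 0.05 on 8 arrays, against 4.19% and 4.39% in the readings of 12.

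The 12 arrays put the interaction of GFRA1 at 0.47 (0.254) with slide 1 as deposited and 0.53 (0.216) with it turned, and that of NCAM1 at 1.45 (0.721) and 1.10 (0.777). Without the LG GDNF pool of slide 3 NCAM1 had 0.78 and 0.39 in these readings and 1.03 on slides 2 and 3. The size of GFRA1 ranged from 0.61 to 0.89 when each of the 8 arrays was left out in turn.

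Between untreated LG and SM oocytes GFRA1 differed by 0.51 (0.196; limma, unadjusted p = 0.0413, adjusted p = 0.902), made of 0.53 on slide 2 and 0.49 on slide 3. With 12 arrays the size was 0.25 (0.180) with slide 1 as deposited and 0.43 (0.153; limma, unadjusted p = 0.0198, adjusted p = 0.999) with it turned. NCAM1 had 0.34 (0.667), the GDNF gene 0.33 (0.252) and RET 0.26 (0.208). NCAM1 went to opposite sides on slide 2, with 1.38, and on slide 3, with 0.71. GFRA1 and RET, 2 of 4 members, had groups that did not overlap, against 30.0% of all genes. Limma called 0.0% of genes, and 534 (4.48%) had an unadjusted p under 0.05 on 8 arrays, against 7.1% and 3.87% on 12. Oocyte markers moved beside GFRA1 here: 12 of 13 lay on its side, against 51.4% of all genes, with a median size of 0.43 against 0.18, and 0 of 13 passed. The median ratio of this list was -0.0862 and -0.297 in SM control on slides 2 and 3, and 0.064 and 0.72 in LG control. On slide 1 it was -0.21 and -0.35. The part of these markers in the GFRA1 difference was not tested. The LG control pools enter this comparison, that of GDNF in LG and the interaction. In the same way the SM control pools enter this comparison, that of GDNF in SM and the interaction. The values of a gene in these comparisons are therefore not independent.

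Between LG and SM oocytes matured with GDNF, NCAM1 had the largest size of the members, 1.58 (0.667; limma, adjusted p = 1.00). It came from 0.42 on slide 2 and 2.74 on slide 3, and was 0.70 without the LG GDNF pool of slide 3. GFRA1 had 0.24 (0.196), RET 0.16 (0.208) and the GDNF gene 0.044 (0.252). In this comparison 11 of 13 oocyte markers lay on the side opposite to GFRA1, against 50.7% of all genes. Their median size was 0.19 against 0.16 over all genes. In none of the 4 members were the groups free of overlap, against 30.4% of all genes. Limma called 0.0% of genes, and 213 (1.79%) had an unadjusted p under 0.05 on 8 arrays, against 2.41% and 4.11% on 12. GDNF-treated SM pools were also set beside untreated LG pools without a test: the difference of GFRA1 was 0.32 on slide 2 and 0.0039 on slide 3, and that of the GDNF gene was 0.16 and 0.45, on the same side. These groups did not overlap on slides 2 and 3 for GFRA1 and the GDNF gene, 2 of 4 members, against 32.3% of all genes.

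Genes around the 4 members in the pathway were taken from lists of ligands, co-receptors, receptor partners, adaptors, kinases and targets, of which 42 of 61 were measured. None passed limma's test over all genes in any of the 6 comparisons. At an unadjusted p under 0.05 there were 1 of 42 for GDNF against control in SM, where 1.18% of all genes reached it, and 2 of 42 in LG, where 5.13% did. These counts are near the share over all genes. The median size of the 42 genes was 0.13 in SM, against 0.14 over all genes, and 0.19 in LG, against 0.18.

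Among the ligands of the family, neurturin (NRTN) had a size of 0.22 (0.217) and persephin (PSPN) 0.11 (0.192) between GDNF and control in SM. Of the co-receptors, GAS1, a GFRA-related protein that binds RET, had 0.40 (0.176) and GFRA3, which binds artemin, 0.37 (0.192) in LG. On the NCAM side the focal adhesion kinase PTK2 had 0.80 (0.348) and ST8SIA4, which adds polysialic acid to NCAM1, 0.37 (0.241). None of these sizes passed, and each rests on 2 pools a group. On 12 arrays with slide 1 as deposited NRTN had 0.0036, PSPN 0.15, GAS1 0.077, GFRA3 0.16, PTK2 0.46 and ST8SIA4 0.20. NRTN and PSPN then lay on the other side. With slide 1 turned the sizes were 0.29, 0.29, 0.46, 0.32, 0.61 and 0.30 in the same order, all on the side of the 8 arrays.

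Below the receptors the adaptor GRB2 had 1.40 (0.198; limma, unadjusted p = 0.0004, adjusted p = 0.884) in LG and lay on the side of the 4 members. Of the 16 measured RET adaptors and effectors only 4 lay on that side in LG, and 12 lay on the other. Of all 42 pathway genes 19 lay on the side of the members and 23 on the other. With 12 arrays it had 1.26 with slide 1 as deposited and 0.61 with it turned. The phosphatase PTPN11 (SHP2) had 0.36 (0.172), the kinase MAP2K1 (MEK1) 0.63 (0.201; unadjusted p = 0.0207, limma) and NRAS 0.19 (0.191). FOS, an early response gene, had 1.58 (0.743) and the feedback inhibitor SPRY2 0.32 (0.209). On 12 arrays with slide 1 as deposited PTPN11 had 0.081, MAP2K1 0.50, NRAS 0.12, FOS 1.20 and SPRY2 0.31. With slide 1 turned these sizes were 0.40, 0.33, 0.13, 0.91 and 0.11. The FOS ratio was -1.68 on the LG GDNF pool of slide 3 and 0.023 or above on the other 11 arrays, the same pool that was extreme for NCAM1.

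The relation of the members to each other was measured on ratios from which each slide's mean had been taken. Turning the sign of a slide turns both genes, so that Pearson's r over the 12 arrays does not depend on the orientation. Spearman's rho, and r of member pairs without the 2 farthest pools, were computed on the ratios as deposited and can depend on it. For r without the LG GDNF pool of slide 3 the slides were centred again, so that this r does not depend on it. None of the 6 pairs was related over the 12 arrays beyond what permutation within slides gave. The co-receptor and the kinase, GFRA1 and RET, had a Pearson r of 0.174 (permutation p = 0.552, adjusted p = 0.747) and a Spearman rho of 0.238 (permutation p = 0.447, adjusted p = 0.536), and r was 0.196 without the 2 pools farthest from the median of GFRA1. The pair with the highest r was GDNF and GFRA1, with 0.326 (permutation p = 0.324, adjusted p = 0.747) and a rho of 0.357 (permutation p = 0.305, adjusted p = 0.536), and r was 0.113 without the 2 farthest pools. The other pairs had r between -0.156 and 0.274, and the p-values are two-sided, exact over 13824 permutations and adjusted over the 6 pairs. Within slides the r of GFRA1 and RET was -0.110, 0.673 and 0.284 on slides 1, 2 and 3, and that of GDNF and GFRA1 was -0.0893, -0.104 and 0.827, each over 4 arrays.

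The genes most like each member by this measure were named by rank among 11027 genes, without a test. For GDNF they were SLC2A12, a glucose transporter, with r = 0.876 and rho = 0.713, GTF3C4, a subunit of an RNA polymerase III initiation factor, with r = 0.868 and rho = 0.895, and the metal-responsive factor MTF1 with r = 0.861 and rho = 0.839. GFRA1 was most like the DNA repair enzyme ALKBH2 (r = 0.918, rho = 0.923), the glutamate receptor GRM2 (r = 0.884, rho = 0.881) and AP1G2, a clathrin adaptor subunit (r = 0.873, rho = 0.846). RET was most like the DNA damage kinase ATM (r = 0.926, rho = 0.937), the splicing-associated ACIN1 (r = 0.904, rho = 0.923) and the prostaglandin E receptor PTGER3 (r = 0.880, rho = 0.930). Between 14 and 21 genes reached an r over 0.8 with each of these members. All points share the arrays and the reference, and with 12 arrays such values occur among many genes.

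NCAM1 was like many more genes: 189 of 11027 had an r over 0.8. The first were the mitochondrial protease HTRA2 (r = 0.968, rho = 0.832), the growth factor IGF1 (r = 0.964, rho = 0.888) and versican (VCAN), a proteoglycan of the cumulus matrix (r = 0.962, rho = 0.839). Without the LG GDNF pool of slide 3 these r were 0.892, 0.883 and 0.873. On that pool HTRA2 had a ratio of -1.62, IGF1 of -0.81 and VCAN of -1.51, each the lowest of its 12 arrays, and on the LG control pool of slide 2 all had their highest, with 1.56, 0.60 and 1.55.

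**Figure D4:**
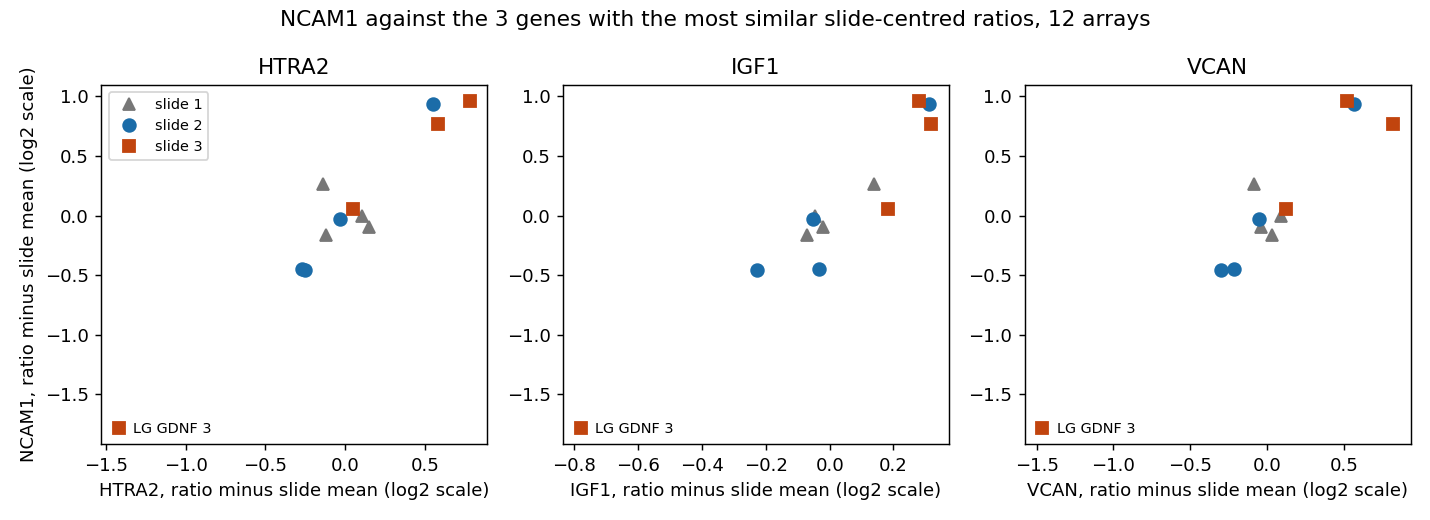
NCAM1 (vertical axis) against HTRA2, IGF1 and VCAN (horizontal axes), each as the deposited ratio minus the mean of its slide on the log2 scale, for 12 arrays. Triangles, circles and squares are slides 1, 2 and 3, and the LG GDNF pool of slide 3 (pool 3) stands alone at the lower left, and without it r is between 0.873 and 0.892.

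Markers of the cells that surround the oocyte moved partly with NCAM1, and ribosomal protein genes moved with it more. Of 15 measured cumulus and granulosa markers 5 had an r over 0.8 with NCAM1, against 1.70% of all genes: VCAN, HAS2 (0.945), INHA (0.874), HSD3B1 (0.844) and TNFAIP6 (0.822). The hyaluronan synthase HAS2 and TNFAIP6 build the cumulus matrix, INHA encodes an inhibin subunit and HSD3B1 a steroid-making enzyme. The median over the 15 markers was 0.284, with FSHR at -0.534 and AMH at -0.401. Without the LG GDNF pool of slide 3, 2 of 15 markers had an r over 0.8. Of 48 ribosomal protein genes 19 had an r over 0.8 with NCAM1 (7 without that pool). Of 13 oocyte markers and 10 theca, stroma and blood markers 0 did. The median r of the ribosomal genes was 0.755, and 0.509 without that pool. That of the cumulus and granulosa markers was 0.225 without it. The share of all genes with an r over 0.8 was not computed without that pool.

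The median ratio of the cumulus and granulosa list lay between 0.134 and 0.207 in SM control, -0.016 and 0.108 in SM GDNF, -0.155 and 0.131 in LG control and -0.217 and 0.156 in LG GDNF, with the lowest value on the LG GDNF pool of slide 3. That of the ribosomal list lay between 0.090 and 0.489 in SM control, -0.255 and 0.584 in SM GDNF, -0.586 and 0.813 in LG control and -1.38 and 0.371 in LG GDNF, again lowest on that pool. The part of either list in the NCAM1 difference was not tested. In pools of whole oocytes a difference in attached cells and a difference in RNA per cell cannot be told apart. With GDNF, GFRA1 and RET none of the 15 markers had an r over 0.8, and the medians were -0.139, -0.0214 and -0.0616. With the 13 oocyte markers their median r was 0.382, 0.292 and 0.261, and none of these markers had an r over 0.8. For NCAM1 the median r with the 13 oocyte markers was -0.340, in a range from -0.645 to 0.555. Without the LG GDNF pool of slide 3 that median was -0.286.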

How the data were processed

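Amplified RNA of 12 oocyte pools and a common reference was measured on 2-colour arrays. The deposited values are log ratios made by the authors, 1 per feature, treated here as log2. Sources used here name neither the log base nor the numerator, background correction or normalization. Every array had a median absolute value of 0.267, so the ratios had been centred and scaled. RNA was isolated with PicoPure, amplified with RiboAmp HS and labelled by ULS, per the labels' protocols. No value was missing.

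The platform annotation gave 18121 features 1 symbol, 27099 none and 0 several, and symbols were updated through RefSeq accessions, current symbols and synonyms. Features of a gene were averaged into 11913 genes. No genome build is named for the array, so coordinates and sequences were not used here. Limma (version 3.58.1, R 4.3.3) fitted the 4 groups and the slide to the 8 arrays of slides 2 and 3, with empirical Bayes moderation, 3 residual degrees of freedom and Benjamini-Hochberg adjustment over all genes. Calls needed a two-sided adjusted p under 0.05. Precision was limited by the few arrays, with a standard error of 0.238 for the median gene between 2 groups. The fit was tested on simulated ratios. Alternatives were both readings of slide 1 on 12 arrays, no slide term, the pool number as a block, other feature summaries, a filter, quantile normalization, array weights and single arrays left out. The pathway genes named are the 2 of each list with the smallest p for GDNF against control, and the genes like a member are the 3 with the highest r. Members and lists were chosen with earlier results of these data known.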

Additional observations from a re-analysis of the deposited data

Results flagged for a closer look

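The difference between GDNF and control in NCAM1 had opposite sides in SM and LG on every slide with the ratios as deposited. GDNF pools minus control pools gave 0.16, 0.41 and 0.19 in SM and -0.36, -1.39 and -1.84 in LG on slides 1, 2 and 3, and the difference between the classes averaged -1.45. Tested as an interaction on 12 arrays it had an unadjusted p of 0.0736 and an adjusted p of 0.991 (limma). With slide 1 turned SM and LG still lay on opposite sides on every slide, but each class changed side between slide 1 and slides 2 and 3. Groups of 3 pools were too small for a test of single outlying pools.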

How the results depend on the processing

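No member passed under any alternative that was run, and the lowest adjusted p was 0.649 (limma, NCAM1 for GDNF in LG, 12 arrays as deposited). Of 204 member values under 9 alternatives 197 kept their side. Many of these could not turn, because each member has 1 feature and each slide holds 1 array of every group. Leaving out the slide term, the pool number as a block, other feature summaries, the filter and array weights left the members' estimates unchanged. The count of 197 is therefore no measure of stability. The 7 that turned came from the readings of slide 1 on 12 arrays. As deposited, GDNF in SM had -0.19, GFRA1 averaged over classes 0.0017, RET averaged 0.093 and RET between classes with GDNF 0.017. With slide 1 turned, RET in SM had -0.092, GDNF averaged 0.061 and GDNF between classes with GDNF -0.034. Without the LG GDNF pool of slide 3, a setting chosen partly after seeing the data, RET as deposited had 0.21 in LG, 0.20 averaged, 0.23 between classes with GDNF and 0.024 for the interaction, and GDNF in SM had -0.19. With slide 1 turned and that pool left out, GDNF had 0.076 averaged and -0.0038 between classes with GDNF, and RET in SM -0.092. GFRA1 and RET were not among the genes kept by the filter on mean absolute ratio and have no value there. Why values turned was not tested.

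Leaving out single arrays of slides 2 and 3 turned 18 of 192 values. The GDNF gene ranged from -0.31 to 0.37 in SM, -0.28 to 0.053 averaged, -0.0044 to 0.67 between untreated classes, -0.026 to 0.11 between treated classes and -0.62 to 0.048 for the interaction. For GDNF in LG no member turned, but the GDNF gene ranged from -0.52 to -0.00013, RET from -0.52 to -0.16, GFRA1 from -0.54 to -0.26 and NCAM1 from -2.50 to -0.73. NCAM1 ranged from -0.50 to 1.11 in SM and -0.47 to 1.14 between untreated classes. GFRA1 averaged ranged from -0.098 to 0.044, and RET from -0.041 to 0.19 in SM and -0.32 to 0.0042 between treated classes. The number of genes called stayed at 0 with all 8 arrays. It ranged from 0 to 82 for GDNF in LG, 0 to 6 averaged, 0 to 101 between untreated classes and 0 to 7 for the interaction, each highest without the LG control pool of slide 2. No member was among those called.

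Deviations of same-numbered pools from their group means had r from -0.399 to 0.427 across genes on 8 arrays. SM control and SM GDNF had 0.427, and LG control and LG GDNF had -0.399, each pair on different slides. Within a group of 2 arrays a pool number always goes with 1 slide, so this check cannot decide whether pool numbers pair samples. The slide was kept as the block. With the pool number as a replicate block in place of the slide, GFRA1 between untreated classes had 0.51 (limma, unadjusted p = 0.0483, adjusted p = 0.808) and 0 genes were called.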
